A study of Capra hircus with 4 samples.

Results

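The mitochondrial genome transcripts of goat muscle were followed across 4 RNA-seq libraries. They were taken as the assembled sequences, called unigenes, whose best nucleotide match is described in the deposited annotation as mitochondrial DNA, a mitochondrial genome, cytochrome b or the control region (D-loop), with nuclear genes left out. This wording selected 35 of 59774 unigenes. In 8 of them, 16270 bases in all, the best match was goat mitochondrial DNA. In 23 it was rabbit mitochondrial DNA, and in 4 it was fungal mitochondrial DNA. The study asked which transcripts in muscle change when goats receive ractopamine, a β-agonist that promotes lean growth. All 4 libraries came from Longissimus dorsi muscle of male Cashmere goats labelled as 2 months old. There was 1 control library, for which no drug is labelled, and 3 treatment libraries from goats on daily oral ractopamine, 1 mg per kg body weight, in a schedule of 28 dosing days and 21 withdrawal days. The labels call the treatment libraries replicates, while the study's methods describe sequencing at several time points. No label ties a library to a day or to an animal. The study prints numbers of genes differing from control for a dosing day, an earlier withdrawal day and a later withdrawal day. These are identical to the numbers of unigenes with counts in treatments 1, 2 and 3, in that order. By this match the treatment libraries are different time points rather than replicates, although no label states it. Each time point is then 1 library, so time points, animals and treatment cannot be told apart. The means, SDs and p-values of the 3 treatment libraries then pool dosing and withdrawal days. They measure only the spread between these libraries. The study's methods describe corresponding control samples, while only 1 control library is available here.

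Mitochondrial DNA of mammals is a small circle that encodes 13 proteins of the respiratory chain, 2 ribosomal RNAs and 22 transfer RNAs. Its transcripts are made as long precursors from both strands and are cut at the transfer RNAs, so neighbouring genes share their origin, while mature RNAs reach different levels. Muscle is rich in mitochondria, and the proteins encoded there belong to complex I (ND1 to ND6 and ND4L), complex III (CYTB), complex IV (COX1 to COX3) and the ATP synthase (ATP6 and ATP8). All other proteins of mitochondria, including those that copy the circle and process its RNA, are encoded in the nucleus.

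The 8 goat unigenes together held reading frames of all 13 proteins when they were read with the mitochondrial code and the gene order of goat assembly ARS1.2. Of the 13 frames, 9 were complete and 4, those of COX2, ATP8, ND4 and CYTB, were partial. Unigene c13644_g4 (1962 bases) carries COX1, the catalytic subunit of complex IV, at positions 358 to 1902. Unigene c9398_g1 (1614 bases) is written in reverse and carries COX3, ATP6 and the end of ATP8. Unigene c13814_g1 (667 bases) lies within COX2, the subunit that accepts electrons from cytochrome c. Unigene c9315_g1 (2165 bases) carries ND3, ND4L and most of ND4, and c9203_g1 (3758 bases) carries ND5, ND6 on the opposite strand and most of CYTB, all of them membrane subunits of complex I apart from cytochrome b of complex III. Unigene c13644_g1 (3862 bases) carries ND1 at 1639 to 2594 and ND2 at 2804 to 3845, after a stretch without a coding frame whose place in the gene order is that of the large ribosomal RNA. Unigene c13644_g3 (1242 bases) has no coding frame and is annotated as the control region, where transcription and replication of the circle start. Unigene c13644_g2 (1000 bases) also has none and is annotated only as mitochondrial genome; by elimination it is called the small ribosomal RNA region here. Each unigene has 1 count, so genes on the same unigene, and the 2 strands, could not be separated, and the transfer RNAs were not placed.

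**Figure D1:**
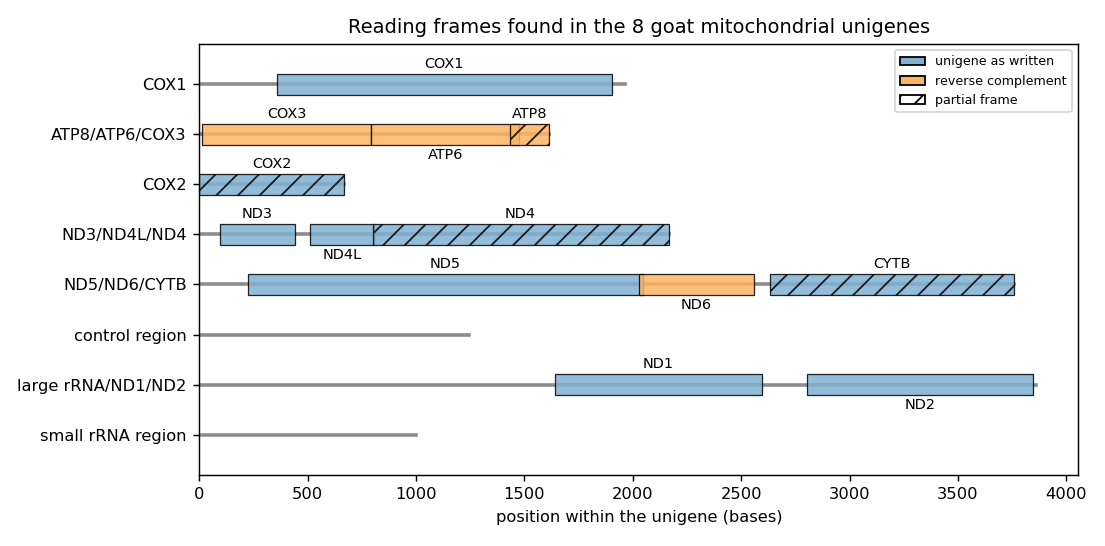
Position in bases along each of the 8 goat mitochondrial unigenes (horizontal axis), with 1 grey line per unigene and 1 box per reading frame, blue for the unigene as written, orange for its reverse complement and hatched for partial frames. The 13 frames lie on 6 unigenes, the small ribosomal RNA region (1000 bases) and the control region (1242 bases) hold none, and the ends of COX2 could not be placed, so its box spans all 667 bases.

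Some stretches of the unigenes show features by which mitochondrial transcripts differ from nuclear ones. The codon TGA is a stop in the nuclear code and tryptophan in mitochondria, and it occurred 98 times within 12 of the 13 frames. In COX1 the first is codon 6, which stands in capitals below. ATP8 and ATP6, ND4L and ND4, and the opposite-strand pair ND5 and ND6 overlap by 40, 7 and 17 bases, and the capitals in the next 3 sequences mark the bases that belong to both frames. The last 2 sequences are copies of a repeat in the control-region unigene, at its positions 427 to 507 and 503 to 583, with 90.2% identity over 82 aligned positions; capitals mark the bases that differ. All are 5′ to 3′, as assembled, with ATP8 and ATP6 given on the coding strand.
COX1, first TGA codon: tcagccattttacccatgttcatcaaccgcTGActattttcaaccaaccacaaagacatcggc
ATP8 and ATP6 overlap: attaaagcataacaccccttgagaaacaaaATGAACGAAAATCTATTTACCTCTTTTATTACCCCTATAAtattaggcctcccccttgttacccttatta
ND4L and ND4 overlap: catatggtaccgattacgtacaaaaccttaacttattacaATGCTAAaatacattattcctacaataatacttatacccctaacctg
ND5 and ND6 overlap: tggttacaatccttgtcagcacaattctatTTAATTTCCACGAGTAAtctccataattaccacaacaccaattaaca
control region, repeat copy 1: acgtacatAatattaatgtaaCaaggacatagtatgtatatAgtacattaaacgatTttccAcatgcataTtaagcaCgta
control region, repeat copy 2: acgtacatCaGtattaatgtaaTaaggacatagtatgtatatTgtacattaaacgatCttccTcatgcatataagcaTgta
The deposited annotation had predicted reading frames of only 183 to 519 bases in these 8 unigenes. It gives a gene name to 2 of them, and the authors' table that pairs unigenes with goat proteins holds 6 of them without a gene name.

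Library depth ranged from 6675218 to 8533046 expected counts, an expected count being the authors' estimate of the fragments from a unigene. Treatment 2 stood apart from the other libraries: it had counts in 11275 unigenes, against 30808 to 49382 elsewhere, and 775464 counts outside the mitochondrial unigenes, against 3044673 to 6543014. Of 13 skeletal muscle markers listed, 9 could be paired with unigenes, and MYH1, MYH7, TTN and TNNC2 were not. Per 1000000 of those other counts, the 9 summed to 93358 in the control, 94345 in treatment 1, 20082 in treatment 2 and 142686 in treatment 3. In treatment 2, 8 of the 9 had counts, and ACTA1, the skeletal muscle actin, had 0. Of 5 fibroblast markers listed, 3 were paired, and COL1A2 and COL3A1 were not. The 3 summed to 106 in the control and to 143, 383 and 239 in treatments 1, 2 and 3. Of 5 adipocyte markers listed, 3 were paired, and FABP4 and LEP were not. These summed to 13.8 in the control and to 94.2, 148 and 25.3 in the same order. The part of these differences in the results below was not tested. In bulk muscle, fewer cells of a type and less RNA per cell cannot be told apart.

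The mitochondrial unigenes held 23.3% of all counts in the control library. They held 41.1% in treatment 1, 89.4% in treatment 2 and 54.4% in treatment 3, so every treatment library lay above the control. The treatment mean was 61.6% ± 25.0 (SD, n = 3), 38.3 percentage points above the control, and 24.4 points above it without treatment 2. An exact permutation test gave p = 0.25 one-sided, the smallest value that 3 libraries against 1 allow, and p = 0.5 two-sided, taken as 2 times the one-sided value. Treatment 2 set alone against the other 3 libraries differed by 49.8 points, more than the control did. Nearly all of this was goat sequence: the 8 goat unigenes held 6563668 of the 6564057 mitochondrial counts in treatment 2, where the difference was largest.

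COX1 was the most abundant goat mitochondrial unigene per length in all 4 libraries. In FPKM, the fragments per kilobase and per 1000000 fragments of the library, it measured 46524 in the control, 74115 in treatment 1, 136566 in treatment 2 and 105058 in treatment 3. The unigene of ATP8, ATP6 and COX3 measured 35612, 55568, 100853 and 60842 FPKM in the same order and ranked second except in treatment 3. COX2 measured 16869 FPKM in the control and 51617, 84795 and 63686 in treatments 1, 2 and 3, and took the second rank in treatment 3. The unigenes that hold the other complex IV genes thus stood next to COX1, although that of COX3 also counts ATP6 and ATP8 of the ATP synthase. COX1 exceeded COX2 by 2.76-fold in the control and by 1.44-, 1.61- and 1.65-fold in the treatment libraries.

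The complex I and cytochrome b unigenes were lower. That of ND3, ND4L and ND4 measured 12265 FPKM in the control and 18250, 82882 and 31216 in treatments 1, 2 and 3. That of ND5, ND6 and CYTB measured 12064, 18977, 47193 and 25771 FPKM in the control and treatments 1 to 3. These neighbours in the order changed places in treatment 1 and differed there and in the control by less than the libraries differed from each other. The control region measured 8120 FPKM in the control and 25593, 44162 and 37031 in the treatment libraries, which put it at rank 4 in treatments 1 and 3 and at rank 6 in the control and treatment 2.

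The unigenes that hold ribosomal RNA sequence, of which the first also holds ND1 and ND2 under the same count, had the lowest levels; no ribosomal RNA was measured apart from its unigene. The unigene with the large ribosomal RNA, ND1 and ND2 measured 4129 FPKM in the control and 10000, 25040 and 11478 in treatments 1, 2 and 3. The small ribosomal RNA region measured 3174, 11615, 7587 and 9801 FPKM in the control and treatments 1 to 3. It was the lowest in 3 libraries, and in treatment 1 the large ribosomal RNA unigene was lower. The highest and lowest of the 8 unigenes differed 14.7-fold in the control, 7.41-fold in treatment 1, 18.0-fold in treatment 2 and 10.7-fold in treatment 3.

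**Figure D2:**
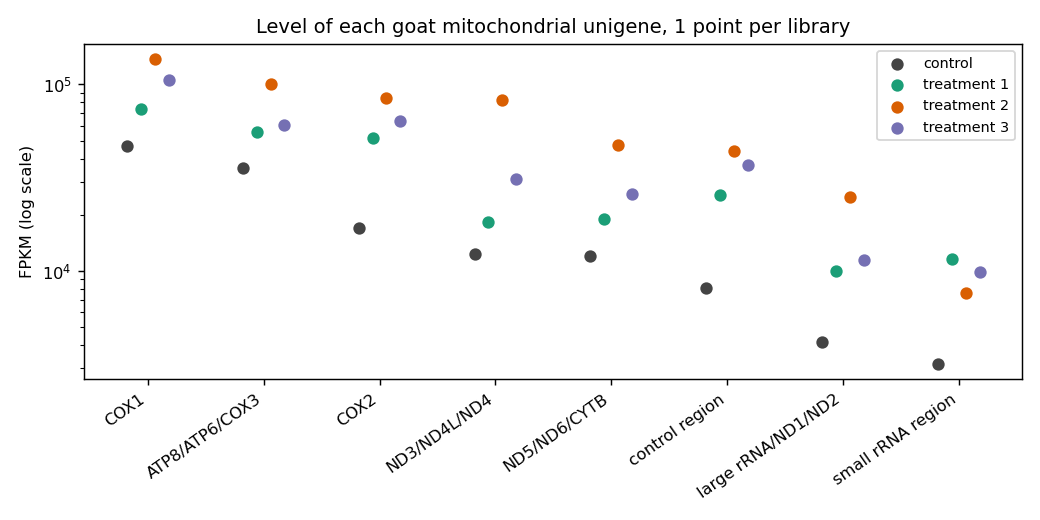
FPKM on a log axis (vertical) of the 8 goat mitochondrial unigenes (horizontal axis, in order of the control), with 1 point per library and no error bars, since each point is 1 library. COX1 is highest in every library, from 46524 in the control to 136566 in treatment 2, and the control point is the lowest of its 4 for each unigene.

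The second question was whether single mitochondrial unigenes differed between treatment and control. Per share of all counts, all 8 goat unigenes were above the control in all 3 treatment libraries, which held for 0.481% of the 13926 unigenes with at least 20 counts. As shares sum to the whole library, these 8 are not independent of each other. A higher mitochondrial share also lowers the ratio of every other unigene by arithmetic. The percentages over all unigenes in this paragraph, above and below the limits, are therefore no independent background. In treatment 1 the ratios to the control ran from 1.49-fold for ND3, ND4L and ND4 to 3.69-fold for the small ribosomal RNA region, and 3 of 8 exceeded the study's upper limit of 3, against 8.14% of all unigenes tested. In treatment 2 they ran from 2.38-fold for the small ribosomal RNA region to 6.74-fold for ND3, ND4L and ND4, and 5 of 8 exceeded 3, against 0.474%. In treatment 3 they ran from 1.71-fold for ATP8, ATP6 and COX3 to 4.58-fold for the control region, and 3 of 8 exceeded 3, against 1.77%. COX2 and the control region exceeded the limit in all 3 libraries, at 3.10- and 3.17-fold in treatment 1, 4.97- and 5.41-fold in treatment 2, and 3.82- and 4.58-fold in treatment 3. None was below the lower limit of 0.6, which 46.1%, 95.5% and 64.7% of all unigenes were in treatments 1, 2 and 3.

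None of the differences in goat unigenes passed a test across libraries. With edgeR's quasi-likelihood test on library totals, 0 of 16 mitochondrial unigenes with at least 20 counts were called at an adjusted p below 0.05, and 0 had an unadjusted p below 0.05. Of all 13926 unigenes 0% were called, with 51 at an unadjusted p below 0.05. The goat members had a median log2 difference of 1.73, against −1.32 for all unigenes tested, and their smallest adjusted p was 1.00 in this fit. DESeq2 called 0 of 16 as well, with 0.158% of all unigenes called and 8 members and 682 of all unigenes at an unadjusted p below 0.05; its lowest adjusted p, 0.0559, belonged to the small ribosomal RNA region. Scaling set the size: the median log2 difference of the goat members was 5.75 with TMM, 3.73 with non-mitochondrial counts and 0.37 with mitochondrial counts as the library size, and that of all unigenes tested was 0.06, −0.59 and −2.32. TMM called 8 members, all rabbit-matched and none of them goat, and 1.73% of all unigenes, 0.883% in the higher direction in which the members were called. The control was 1 library and was assumed to vary like the treatment libraries.

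The third question was whether the mitochondrial transcripts kept their proportions. COX1 held 35.1% of the goat mitochondrial counts in the control and 31.9%, 26.8% and 34.1% in treatments 1, 2 and 3. The unigene of ATP8, ATP6 and COX3 held 21.6% in the control and 19.2%, 15.9% and 15.9% in the treatment libraries. These were the 2 of 8 unigenes that lay below the control in all 3 treatment libraries. With 1 control library, the control is often the highest or lowest value without any difference between groups, and the shares sum to the whole. The number of unigenes on 1 side of the control, here and below, is therefore no support for a change of proportions.

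Another 3 unigenes lay above the control in all 3. COX2 held 3.37% in the control and 5.94%, 4.37% and 5.52% in treatments 1, 2 and 3. The control region held 3.62% in the control and 6.53%, 5.12% and 7.12% in the same order. The large ribosomal RNA, ND1 and ND2 unigene held 6.48% in the control and 8.93%, 10.2% and 7.74%. The small ribosomal RNA region, named by elimination, lay above the control in treatments 1 and 3 and below it in treatment 2. It held 1.09% in the control and 2.28%, 0.674% and 1.45% in treatments 1, 2 and 3.

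The remaining complex I unigenes had the control inside the range of the treatment libraries. ND5, ND6 and CYTB held 18.4% in the control and 16.5%, 18.7% and 16.9% in treatments 1, 2 and 3. ND3, ND4L and ND4 held 10.3% in the control and 8.76%, 18.2% and 11.3%, so treatment 2 was far above the other 3 libraries for this unigene and near them for its neighbour on the circle. Within a library the ratios to the control spread 2.47-fold in treatment 1, 2.84-fold in treatment 2 and 2.67-fold in treatment 3. With mitochondrial counts as the library size, edgeR called 0 of 8 goat unigenes and 0% of all unigenes, with 44 of all unigenes and 0 members at an unadjusted p below 0.05, and the smallest adjusted p of a goat unigene was 0.905. Without treatment 2, 7 of 8 unigenes lay on 1 side of the control in both remaining libraries, all but ND3, ND4L and ND4.

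**Figure D3:**
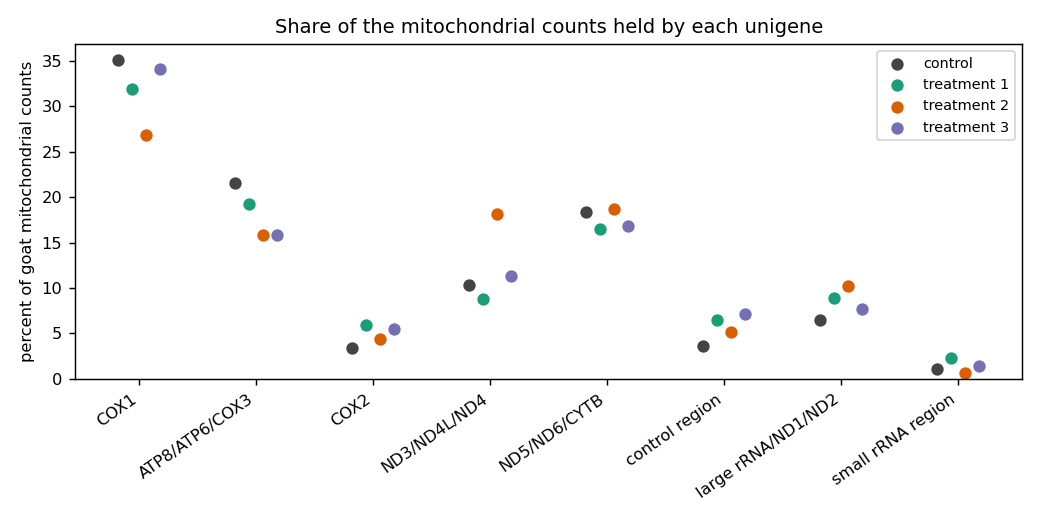
Percent of the goat mitochondrial counts (vertical axis, from 0) held by each of the 8 unigenes (horizontal axis), with 1 point per library. COX1 and the ATP8, ATP6 and COX3 unigene have the control as the highest point, the large ribosomal RNA, COX2 and control-region unigenes have it as the lowest, and ND3, ND4L and ND4 reach 18.2% in treatment 2 alone.

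Rabbit-matched mitochondrial unigenes were counted almost only in treatment 2. The 23 unigenes, 11026 bases in all, had 3 counts in the control, 4 in treatment 1, 387 in treatment 2 and 1 in treatment 3. All 23 had their highest count in treatment 2, and 18 had counts in no other library. The unigenes with most counts were those of COX1 (c23575_g1, 910 bases) with 2, 1, 91 and 0 counts in the control and treatments 1, 2 and 3, COX2 (c36228_g1) with 0, 0, 41 and 0, and COX3 (c4572_g1) with 0, 1, 40 and 0. The CYTB unigene c40442_g1 had 1, 0, 24 and 0 counts, and the other 19 had 1 to 29 counts in treatment 2. Only in treatment 2 were these counts above the floor of 3 counts for any single unigene.

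The rabbit-matched unigenes were distinct from the goat ones in sequence. Their identity to the goat unigenes was 67.0 to 82.5%, with a median of 78.0%. Of the 23, 21 carried a protein match, to 11 different mitochondrial genes, and for all 21 the goat unigene closest in translation held the same gene. Per goat mitochondrial count, the rabbit-matched sum was 39.1-fold that of the control in treatment 2 (exact 95% interval 13.3 to 190, counting error only), 0.811-fold in treatment 1 (0.137 to 5.54) and 0.183-fold in treatment 3 (0.00348 to 2.28). The interval of treatment 2 lay above those of the other libraries, but all of them use the same 3 control counts. As 18 of these unigenes had counts in treatment 2 only, this separation is no independent test. The 8 rabbit-matched unigenes with at least 20 counts reached that minimum only through treatment 2, with 0 to 2 counts elsewhere, so their calls under TMM were favoured by the filter and are no support for a difference between treatment and control. Their origin was not tested. The 4 fungal unigenes, among them c21270_g1, summed to 1, 5, 2 and 0 counts in the control and treatments 1, 2 and 3, near the floor in each library.

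**Figure D4:**
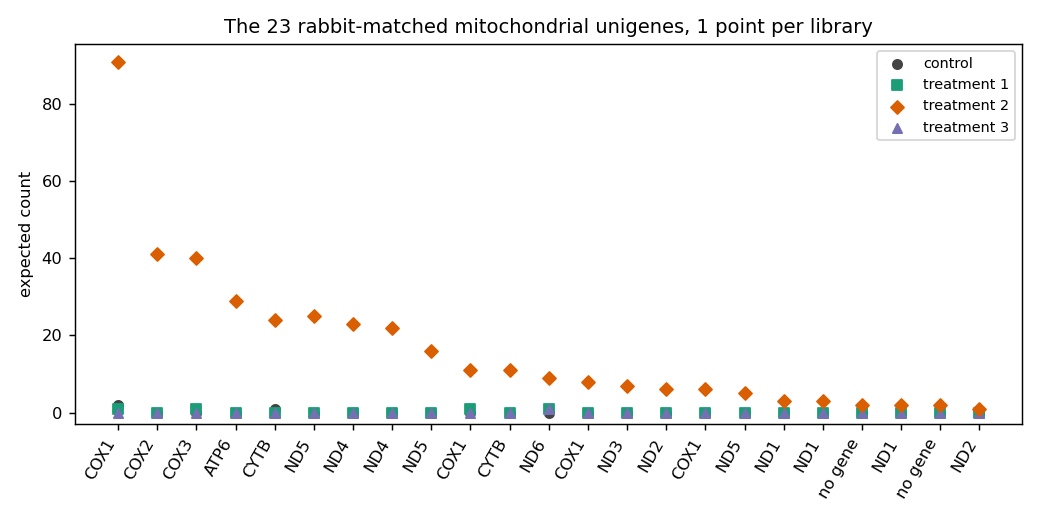
Expected counts (vertical axis) of the 23 rabbit-matched mitochondrial unigenes, ordered by their summed count and labelled with the gene of their protein match (horizontal axis), with 1 point per library. Treatment 2 runs from 1 to 91 counts, and no other library exceeds 2.

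The last comparison was with nuclear genes that copy, transcribe and process mitochondrial RNA. Of 45 genes listed, 29 were paired with a unigene and 28 had at least 20 counts. The 3 with most counts were TBRG4, which acts in mitochondrial RNA processing, POLG, the DNA polymerase of mitochondria, and HSD17B10, a subunit of mitochondrial ribonuclease P. Per 1000000 non-mitochondrial counts, TBRG4 measured 122 in the control and 54.8, 12.9 and 77.5 in treatments 1, 2 and 3. POLG measured 90.2 in the control and 54.6, 7.74 and 53.2. HSD17B10 measured 65.7 in the control and 52.4, 5.16 and 48.6. The treatment 2 values rest on 10, 6 and 4 counts. All 3 genes were below the control in every treatment library, and most goat genes tested were not above it either.

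The list had a median ratio to the control, per non-mitochondrial count, of 0.622 in treatment 1, 0.0296 in treatment 2 and 0.616 in treatment 3. Of the 8633 goat genes tested, those with counts in the control had medians of 0.685, 0.114 and 0.683. Genes without control counts have no such ratio and are left out. In treatment 2, 12 of the 28 list genes had 0 counts, in a library with few non-mitochondrial counts. The share of all goat genes at 0 counts there was not computed, so this number is not read as particular to the list. In the same library 0 list genes were above the control. In treatment 1 the 4 list genes above the control were SLIRP, TRMT10C, PUS1 and POLG2, and in treatment 3 the 5 above it were SLIRP, TRMT10C, FASTK, PNPT1 and KIAA0391, all named after their values were seen. Of the goat genes tested that had counts in the control, 30.3%, 6.25% and 27.3% were above it in treatments 1, 2 and 3. Of the list, 14.3%, 0% and 17.9% were. SLIRP, which binds and stabilises mitochondrial messenger RNAs, measured 26.1 per 1000000 non-mitochondrial counts in the control and 99.8, 21.9 and 54.8 in treatments 1, 2 and 3. Its partner LRPPRC measured 97.2 in the control and 20.9, 1.29 (1 count) and 28.9. In treatments 1 and 3 SLIRP was thus above and LRPPRC below the control, neither past the test. With edgeR on totals, 0 of 28 list genes were called and 0 had an unadjusted p below 0.05, with 0% of all goat genes called and 32 at an unadjusted p below 0.05. DESeq2 called 0 of 28, with 0.0232% of all goat genes called and 1 list gene at an unadjusted p below 0.05. Without treatment 2, edgeR called 0, with 10 of 28 list genes and 2611 of 8606 goat genes at an unadjusted p below 0.05.

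**Figure D5:**
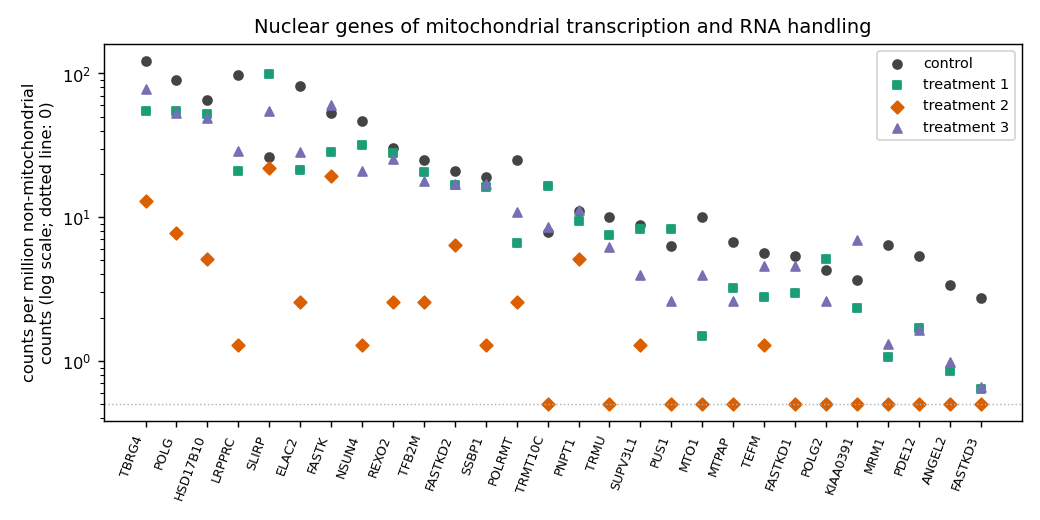
Counts per 1000000 non-mitochondrial counts on a log axis (vertical) of the 28 nuclear genes with at least 20 counts, ordered by their summed count (horizontal axis), with 1 point per library and genes without counts placed on the dotted line. Treatment 2 is the lowest point for most genes, and 12 genes sit on the dotted line in that library.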

How the data were processed

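RNA was measured in 1 control and 3 treatment libraries, made with a kit that does not mark strand. The authors assembled the reads and deposited expected counts (all whole numbers), TPM and FPKM per unigene and transcript; the assembler and counter are not given in the sources used here. The other columns the authors deposited hold lengths and the percent of a unigene held by each transcript. The annotation and unigene sequences were also deposited. The members and gene lists were chosen with earlier results of these data known. Unigenes with at least 20 expected counts over the 4 libraries were tested with edgeR 4.0.16 in R 4.3.3, on library totals without TMM, and p-values were adjusted by Benjamini-Hochberg over all unigenes, called below 0.05; DESeq2 1.42.0 was an alternative. The ratio limits of 3 and 0.6 are the study's. For these ratios a count of 0 in the control or the treatment library was set to 3 counts. Pairs with 3 counts or fewer in both libraries were not compared, but they remain among the 13926 unigenes behind the percentages. Reading frames were searched with the mitochondrial code (Python 3.11.15, biopython 1.88) and unigenes compared with BLAST 2.17.0. The scripts were tested on simulated data. Named were all mitochondrial genes covered, the 10 unigenes with most counts (a tie included), those on the opposite side of 1 from the sum in any treatment library, and the 3 listed nuclear genes with most counts. Intervals are exact and cover counting error only.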

Additional observations from a re-analysis of the deposited data

How the results depend on the processing

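The difference in mitochondrial share between the treatment mean and the control, 38.3 percentage points, was 37.7 with TPM or FPKM and 28.0 without the most abundant unigene, and ranged from 24.4 to 48.6 when 1 treatment library was left out, the lowest without treatment 2. The number of mitochondrial unigenes called was 0 under every alternative run, leaving out each treatment library (0 to 0) included, except TMM, which called 8; the cause was not tested. Members with a ratio above 3 numbered 3, 13 and 3 in treatments 1, 2 and 3, of which 8 in treatment 2 are rabbit-matched unigenes that passed the filter only through that library. They numbered 7 in treatment 3 with a limit of 2 and also with non-mitochondrial counts as library size, 0, 4 and 0 in treatments 1, 2 and 3 with mitochondrial counts as library size, and 5 in treatment 2 with at least 100 counts, where the rabbit-matched unigenes are not tested. The unigenes on 1 side of the control in every treatment library, 5 in all, ranged from 5 to 7 with 1 treatment library left out. The calls of goat unigenes within mitochondrial counts and of nuclear list genes stayed at 0 (0 to 0 with 1 library left out), although without treatment 2 and with mitochondrial counts as library size 1606 of all 13840 unigenes were called, 1600 of them lower, against 0 with all libraries. DESeq2 on the nuclear list and the leave-one-out fits on mitochondrial counts were added after seeing the data. No paired analysis was possible because only the treatment libraries carry numbers and the control is 1 library. The levels of nuclear genes in treatment 2 rest on 775464 counts, which limits what can be detected there.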

Other observations

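Outside the mitochondrial unigenes, 16 further unigenes had a rabbit sequence as their best nucleotide match. They summed to 40 counts in the control and to 17, 17 and 19 in treatments 1, 2 and 3, so their sum was not highest in treatment 2. Of the 16, 10 had their highest count in treatment 2, with 1, 1, 17 and 0 counts in the control and treatments 1, 2 and 3; these 10 were picked by that count, and it supports nothing by itself. Among them were 2 unigenes of cardiac troponin T, a thin filament protein, with 1, 0, 5 and 0 counts.

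The other marker lists were compared per 1000000 non-mitochondrial counts. The 4 endothelial markers paired with unigenes summed to 277 in the control and to 150, 128 and 341 in treatments 1, 2 and 3. The 4 of 5 myeloid markers that were paired summed to 2.14 in the control and to 15.8, 2.58 and 3.28, with treatment 1 the highest. The 2 of 5 red blood cell markers that were paired, without HBB, HBA and ALAS2, summed to 4.13, 5.12, 2.58 and 6.24 in the control and treatments 1 to 3. Of the 5 B and plasma cell markers 0 were paired. No test was made on these sums.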
